A study of Mus musculus with 6 samples.

Results

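Complex I (NADH:ubiquinone oxidoreductase) is the entry point of electrons from NADH into the mitochondrial respiratory chain. The nuclear genes of this enzyme are described here in mouse hearts. The members are all genes whose symbol starts with Nduf, pseudogene names ending in .ps left out, which gave 48 of the 29385 genes in the deposited tables; 2 names ending in .ps were left out. They comprise 36 structural subunits, 8 assembly factors (Ndufaf genes), Ndufa4 and its paralogue Ndufa4l2, and Ndufb4c and Ndufs6b, which GENCODE annotates as processed pseudogenes. All 48 passed the filter on low counts, as did 16804 genes in all.

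Poly(A) RNA of hearts taken 12 months after neonatal dosing was sequenced in 6 libraries, 2 in each of 3 groups. The RH/+ group carried 1 altered Myh6 allele, which the labels call RH, and received vehicle; Myh6 encodes the alpha myosin heavy chain of the adult mouse heart. The RH/RQ vehicle group carried RH on one chromosome and a further altered allele, RQ, on the other, and received vehicle. The treated group had the same RH/RQ genotype and received AAV-hpCas13d, an adeno-associated virus that carries Cas13d, an RNA-cutting enzyme directed by guide RNAs. All groups thus shared the RH allele, no group was wild type and no group received an empty virus. The labels spell out neither allele and give no promoter, guide, strain or sex. They do not tell whether 2 libraries of a group are 2 mice, and the sample titles within a group differ only in their leading digit. The p-values then rest on the spread among these libraries, which may be technical.

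Library totals were 36269261 to 51017058 reads, and 0 reads in a library allow a level of up to 0.0588 to 0.0827 CPM (3 counts; CPM is the read count scaled to the library total), a limit for counting error only. Genes of the mitochondrial genome took 17.2 to 22.4% of the reads. The heart label was met by the 12 listed cardiomyocyte markers, which summed to 51867 to 59672 CPM per library. Xist and 4 Y-linked genes showed both RH/RQ vehicle libraries as male and the RH/+ and treated libraries as female. Wherever the RH/RQ vehicle group is compared, sex differs along with genotype or treatment and they cannot be told apart; treated and RH/+ hearts do not differ in this respect.

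In mammals complex I is built from nuclear and mitochondrial gene products that form an L. The arm in the matrix holds the N module, which oxidises NADH, and the Q module, which passes electrons to ubiquinone, and the membrane arm pumps protons with the subunits made from mitochondrial DNA at its core. Assembly factors help to join these modules and are not part of the finished enzyme. Heart muscle is among the tissues richest in this enzyme.

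Promoter sequences were available from RefSeq (GRCm38.p6; 250 bases before to 50 bases after each start) for 40 of the 48 genes, in 42 windows. Among those not in the table were Ndufa2, Ndufa4l2, Ndufaf6, Ndufb4c, Ndufb9, Ndufs1 and Ndufs6b. Both strands were searched for core letters of motifs of factors known to regulate nuclear respiratory genes. GCGCANGCG (NRF1) was in 11 of the 42 windows (26.2%), against 6.25% of the 32851 windows in the table. AAGATGGC (YY1) was in 8 (19.0% against 2.75%), CCGGAAG (the ETS family, which includes GABP) in 6 (14.3% against 8.86%) and AAGGTCA (the oestrogen-related receptors) in 3 (7.14% against 4.72%). The Nduf windows were richer in G and C, with a median of 59.3% against 52.7%, and this was not taken into account. Of the 40 genes 23 held at least 1 of these cores. Such a match is a description of letters and does not show that a factor binds.

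The promoters of 4 members to which the results return are shown on the strand of the gene, with the matched letters in capitals; no match overlaps another. Ndufa5 (chr6:24527477-24527776, minus strand, shown for 1 of its 2 windows, both with the same core) holds 1 NRF1 core and is the gene that passed the test. Ndufb4 (chr16:37654319-37654618, minus strand) holds the most cores, 3 for NRF1 and 1 for the oestrogen-related receptors. Ndufs7 (chr10:80249199-80249498, plus strand) holds 1 YY1 core, and Ndufaf8 (chr11:120098684-120098983, plus strand), an assembly factor, holds 1 ETS and 1 YY1 core.
Ndufa5: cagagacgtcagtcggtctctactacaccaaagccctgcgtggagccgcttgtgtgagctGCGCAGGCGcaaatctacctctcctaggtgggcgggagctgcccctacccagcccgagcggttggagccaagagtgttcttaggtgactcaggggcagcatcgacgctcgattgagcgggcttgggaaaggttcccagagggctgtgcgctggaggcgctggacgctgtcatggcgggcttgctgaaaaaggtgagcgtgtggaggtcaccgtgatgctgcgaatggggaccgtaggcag
Ndufb4: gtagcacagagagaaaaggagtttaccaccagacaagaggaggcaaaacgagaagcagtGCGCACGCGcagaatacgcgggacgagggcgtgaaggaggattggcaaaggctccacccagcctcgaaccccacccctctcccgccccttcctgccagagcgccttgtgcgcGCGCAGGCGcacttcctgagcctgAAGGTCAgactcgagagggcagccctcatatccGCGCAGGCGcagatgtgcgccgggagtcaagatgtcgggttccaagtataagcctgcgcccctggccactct
Ndufs7: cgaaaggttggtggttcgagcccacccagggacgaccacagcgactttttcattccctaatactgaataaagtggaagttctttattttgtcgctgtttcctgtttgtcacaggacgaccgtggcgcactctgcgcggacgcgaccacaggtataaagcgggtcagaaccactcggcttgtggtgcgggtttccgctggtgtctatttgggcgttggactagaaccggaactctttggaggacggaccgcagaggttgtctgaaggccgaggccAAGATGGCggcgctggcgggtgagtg
Ndufaf8: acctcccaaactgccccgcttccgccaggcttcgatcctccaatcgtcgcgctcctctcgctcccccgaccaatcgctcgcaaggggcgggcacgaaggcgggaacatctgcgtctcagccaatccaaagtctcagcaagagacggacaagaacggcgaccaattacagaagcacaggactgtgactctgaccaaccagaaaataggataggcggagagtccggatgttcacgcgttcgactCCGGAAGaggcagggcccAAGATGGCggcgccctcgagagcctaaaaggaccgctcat

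The subunits were abundant and the assembly factors were not. Divided by transcript length, the mean over the 6 libraries was highest for Ndufa4 (1699 CPM per kilobase), and Ndufb10 stood at 620 CPM per kilobase. The 8 assembly factors lay between 14.0 (Ndufaf6) and 40.8 CPM per kilobase (Ndufaf1). Of the 36 subunits 34 stood above 100 CPM per kilobase, from 108 for Ndufs4 upward. The exceptions were Ndufab1, the mitochondrial acyl carrier protein, at 55.9 and Ndufb2 at 29.7 CPM per kilobase. The length used for Ndufab1, 3479 bases, was the longest of the subunits, and its mean before division was 194 CPM. The level of Ndufb2 is uncertain, since its exons overlap a same-strand gene model, Gm42420, over 2.58% of their length, as well as antisense genes, and the counting of shared reads is not given in the sources used here.

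The first comparison set RH/RQ vehicle hearts against RH/+ vehicle hearts, that is, hearts with and without the RQ allele beside RH. Most subunit genes were lower by a small amount: the log2 fold change was below 0 for 45 of the 48 genes, and its median was -0.23 against 0.04 over all 16804 genes tested. Fold changes are on the log2(CPM + 1) scale. Ndufa5, an accessory subunit of the Q module, was the 1 gene that passed the test (limma adjusted p under 0.05 over all genes), and 1.51% of all genes passed in the lower direction. In 39 of the 48 genes both RH/RQ vehicle libraries were below both RH/+ libraries, which held for 18.5% of all genes; in no member was the order the reverse. An unadjusted p under 0.05 was reached by 24 of the 48, against 2868 of all 16804 genes tested, in either direction. In heart tissue, fewer cells of a type and less RNA per cell cannot be told apart.

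The number of genes called depended on the method, while the direction of the median did not. EdgeR on the recovered reads called 6 members lower (background 2.34% of genes), DESeq2 14 (2.79%) and limma with TMM factors 10 (2.4%). Limma called 11 without treated library 1 (2.28%) and 11 without treated library 2 (2.29%), and the authors' deposited table gives 26 of the 48 an adjusted p under 0.05, all lower (3.63% of its genes). Ndufa5 was among the calls of each. The authors' deposited table gives a median log2 fold change of -0.28 for the 48 genes. Under the other scalings and tools the median lay between -0.28 and -0.20, and the share below 0 was 45 to 47 of 48. These count models share the libraries and are no independent evidence.

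**Figure D1:**
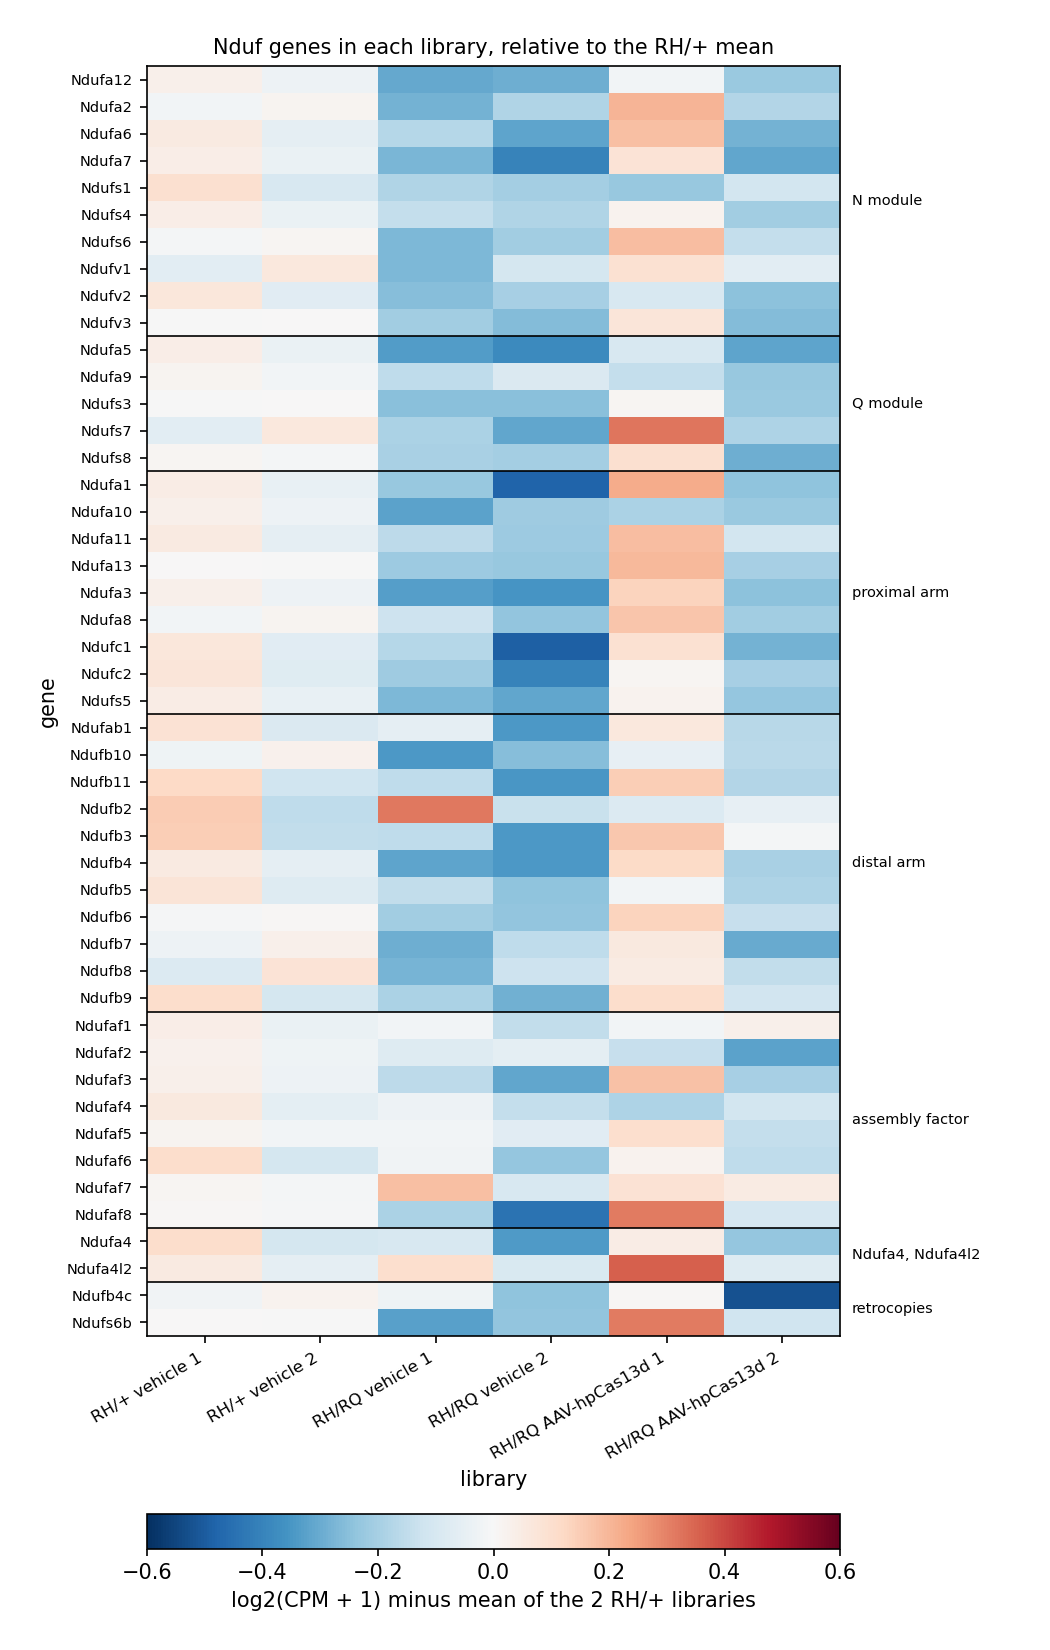
Level of 47 of the 48 Nduf genes (rows, by role) in each of the 6 libraries (columns), as log2(CPM + 1) minus the mean of the 2 RH/+ libraries; blue is lower and red is higher. The RH/RQ vehicle columns are blue for most subunits, the first treated column is mostly near white or red, and the second treated column is mostly pale blue.

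In the Q module all 6 genes were lower in both RH/RQ vehicle libraries than in either RH/+ library, with a median log2 fold change of -0.25. Ndufa5 (chromosome 6, 24518666 to 24528013, minus strand, GRCm38) stood at 401 and 380.2 CPM with RH/+, 309.5 and 299.5 CPM with RH/RQ and vehicle, and 366 and 313 CPM after treatment. The RH/RQ vehicle values lay apart from the RH/+ values and the treated values lay between them, with no overlap among the 3 groups. Ndufa5 fell by 22% on the log2(CPM + 1) scale, or -0.36 (SE 0.097) in log2 units, with a limma adjusted p of 0.0329. With any 1 of the 4 RH/+ or RH/RQ vehicle libraries left out it did not pass, with values from -0.40 to -0.32, and it did not pass with no filter on low counts.

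The core subunits of the Q module carry the path of electrons. Ndufs7, an iron-sulfur subunit, had 410.2 and 447 CPM with RH/+, 375 and 345 CPM with RH/RQ and vehicle, and 536 and 377 CPM after treatment (log2 fold change -0.25, SE 0.12; limma adjusted p = 0.296). Ndufs7 was lower in each RH/RQ vehicle library than in each RH/+ library, and the first treated library was the highest of the 6. Ndufs3, a further core subunit of the module, went from 358 and 359.7 CPM with RH/+ to 301 and 302 CPM in RH/RQ vehicle hearts (log2 fold change -0.25, SE 0.097). Ndufs8, which carries iron-sulfur clusters and was the lowest of the module in CPM, went from 214 and 209.5 to 185 and 183 CPM (log2 fold change -0.20, SE 0.11). Neither passed the test, but the RH/RQ vehicle and RH/+ values of each did not overlap.

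In the N module all 10 genes lay below both RH/+ libraries in both RH/RQ vehicle libraries, and none passed the test; the median log2 fold change was -0.23. Ndufa12, an accessory subunit where the N and Q modules meet, had the smallest p of the module, with 353 and 338 CPM with RH/+, 279 and 281 CPM with RH/RQ and vehicle, and 342 and 296 CPM after treatment (log2 fold change -0.30, SE 0.096; limma adjusted p = 0.0751). Ndufv1, which binds NADH and the flavin, was the highest of the module in CPM, with 695 and 761 CPM with RH/+, 602 and 677 CPM with RH/RQ and vehicle, and 776 and 697 CPM after treatment (log2 fold change -0.19, SE 0.11). Its RH/RQ vehicle libraries differed from each other by more than the higher of them differed from the lower RH/+ library. Ndufv2, an iron-sulfur subunit, had 582 and 530.0 CPM with RH/+ and 465 and 484 CPM with RH/RQ and vehicle (log2 fold change -0.23, SE 0.099). Ndufs1, the large iron-sulfur subunit, had 750.1 and 656 CPM and 618 and 608 CPM in the same order (log2 fold change -0.19, SE 0.10). Ndufa2, lowest of the module in CPM, had 187 and 191 CPM and 155 and 166 CPM (log2 fold change -0.23, SE 0.11). The core subunit genes Ndufv1, Ndufv2, Ndufs1, Ndufs3, Ndufs7 and Ndufs8 thus had groups that did not overlap, with log2 fold changes from -0.25 to -0.19.

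The membrane arm showed the same order of libraries. In its proximal part, next to the matrix arm, all 9 genes had RH/RQ vehicle values below both RH/+ values, with a median of -0.29 in log2 units and no call. Ndufa3, a small membrane subunit with the smallest p there, had 271 and 260.5 CPM with RH/+, 211 and 208 CPM with RH/RQ and vehicle, and 292 and 224 CPM after treatment (log2 fold change -0.34, SE 0.11; limma adjusted p = 0.0649). The X-linked subunit Ndufa1 had 174 and 163 CPM with RH/+, 143 and 120.5 CPM with RH/RQ and vehicle, and 197 and 142 CPM after treatment (log2 fold change -0.35, SE 0.12; limma adjusted p = 0.0961). Ndufa10, a subunit that resembles nucleoside kinases, was the highest of this arm in CPM, with 642 and 616 CPM with RH/+ and 503 and 543 CPM with RH/RQ and vehicle (log2 fold change -0.27, SE 0.097).

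In the distal part 9 of 11 genes had groups that did not overlap; Ndufb2 and Ndufab1 were the exceptions, and the median log2 fold change was -0.22. Ndufb4, an accessory subunit of this arm, had 198 and 184 CPM with RH/+, 153 and 150.4 CPM with RH/RQ and vehicle, and 207 and 167 CPM after treatment (log2 fold change -0.33, SE 0.10; limma adjusted p = 0.0619). Ndufb10, highest of this arm in CPM, had 487 and 505 CPM with RH/+ and 391 and 415 CPM with RH/RQ and vehicle (log2 fold change -0.30, SE 0.095). Ndufb2 was at 11.9 to 16.9 CPM in all libraries, the groups overlapped, and its log2 fold change was 0.09 (SE 0.16). The other X-linked member, Ndufb11, went from 395 and 335 to 328 and 286 CPM (log2 fold change -0.25, SE 0.11). Reads of Ndufb9 and Ndufb8 are uncertain in part, since other genes on the same strand overlap 19.5% and 4.26% of their exons. Among others, genes on the opposite strand overlap 39% for Ndufb6, 12.9% for Ndufb11, 12.3% for Ndufb5 and, in the proximal part, 30% for Ndufa13. Their reads are uncertain in part too, since strandedness is not given.

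**Figure D2:**
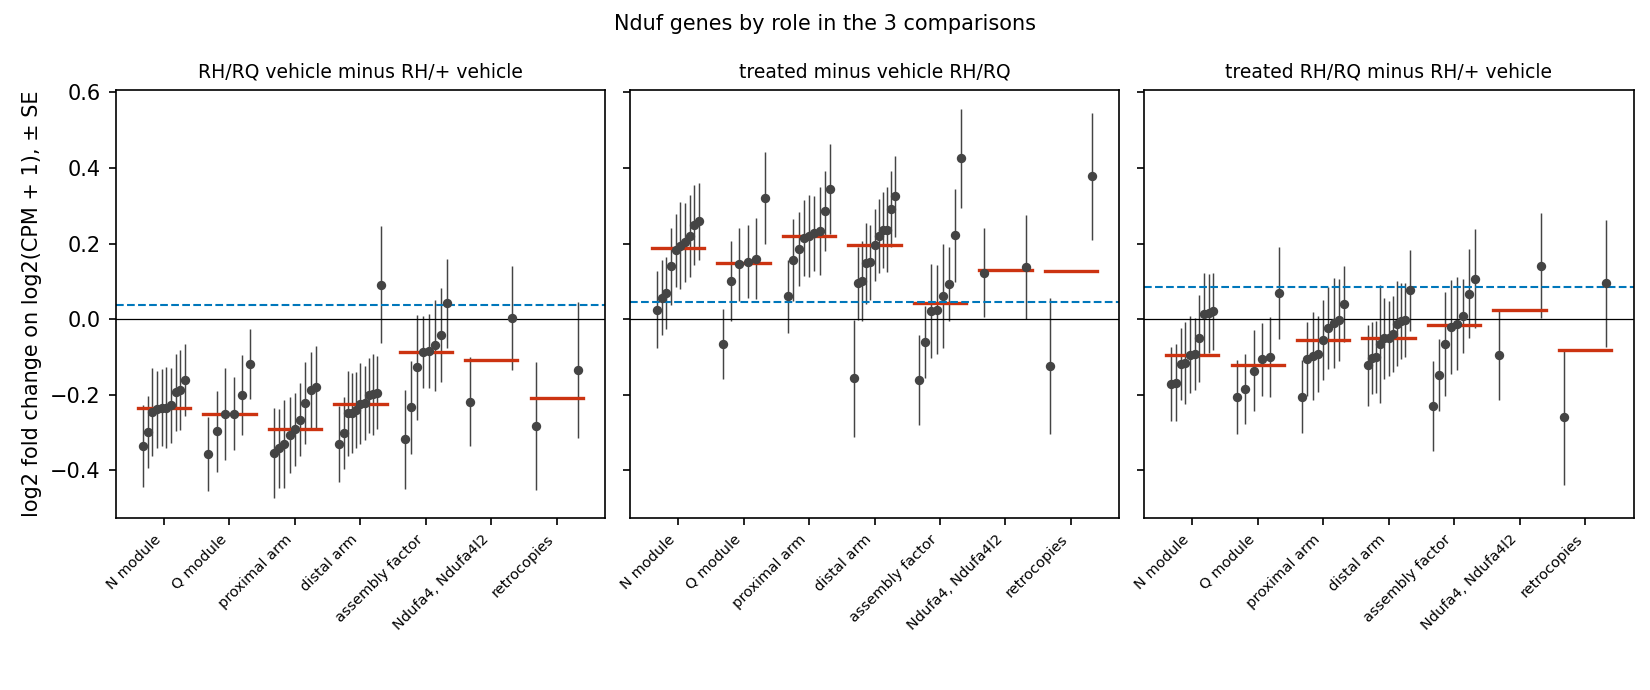
Log2 fold change on log2(CPM + 1) with its SE (points and bars) for each Nduf gene by role in the 3 comparisons, n = 2 libraries a group. Red lines are medians of a role, the dashed blue line is the median of all 16804 genes tested. The medians of the 4 subunit groups lie at -0.29 to -0.22 in the first panel and that of the assembly factors at -0.09.

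The assembly factors were less far apart. RH/RQ vehicle values were below both RH/+ values in 3 of the 8 (Ndufaf2, Ndufaf3 and Ndufaf8), against 34 of the 36 subunits, their median was -0.09 in log2 units, and none passed the test. Whether they differ from the subunits was not tested; their levels were lower, with 13.3 to 92.9 CPM, and their SE was 0.095 to 0.14. Ndufaf8, which works with Ndufaf5 in the modification of Ndufs7, had 30.2 and 29.9 CPM with RH/+, 26.2 and 21.8 CPM with RH/RQ and vehicle, and 37.6 and 28.0 CPM after treatment (log2 fold change -0.32, SE 0.13; limma adjusted p = 0.191). Ndufaf4, a factor of early matrix arm assembly and the highest of this group in CPM, had 92.9 and 85.8 CPM with RH/+, 87.3 and 80.8 CPM with RH/RQ and vehicle, and 78.4 and 82.6 CPM after treatment (log2 fold change -0.09, SE 0.095). Ndufaf6, another factor of early assembly and the lowest in CPM, had 17.1 and 14.6 CPM with RH/+ and 15.6 and 13.3 CPM with RH/RQ and vehicle (log2 fold change -0.13, SE 0.14). Ndufaf7, a protein methyltransferase, was the only factor above 0, at 26.2 and 25.8 CPM against 29.6 and 24.3 CPM, a log2 fold change of 0.04 (SE 0.12); all 8 were below 0 under TMM factors, RLE factors and DESeq2. Ndufaf2 shares 65.7% of its exon length with an antisense lincRNA, B230220B15Rik, so its reads are uncertain.

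Ndufa4 is now assigned to cytochrome c oxidase, and Ndufa4l2 is its paralogue induced by low oxygen. Ndufa4 had 885 and 762 CPM with RH/+, 769 and 648 CPM with RH/RQ and vehicle, and 846 and 698 CPM after treatment (log2 fold change -0.22, SE 0.12; limma adjusted p = 0.363), with groups that overlapped. Ndufa4l2 was at 20.6 and 19.1 CPM with RH/+, 21.3 and 18.5 CPM with RH/RQ and vehicle, and 25.7 and 18.7 CPM after treatment (log2 fold change 0.00, SE 0.14), and its sign turned to -0.04 or -0.05 under TMM, RLE, edgeR and DESeq2. Ndufb4c and Ndufs6b, at 4.67 to 9.68 CPM, are intronless copies of Ndufb4 and Ndufs6, and reads may be shared between each copy and its parent gene.

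Differences between the groups were also set beside the promoter letters, as a description. The 10 genes with an NRF1 core had a median log2 fold change of -0.24 (range -0.36 to -0.04) and the 30 without it -0.23 (-0.35 to 0.09). The 8 genes with a YY1 core had a median of -0.24, against -0.23 in the 32 without it. For the ETS core the medians were -0.22 in 6 genes with it and -0.23 in 34 without it, and for the core of the oestrogen-related receptors -0.29 in 3 genes (-0.33 to 0.09) and -0.23 in 37. The promoter of Ndufb4 printed above, with 4 cores, belongs to a gene with groups that do not overlap, as does that of Ndufs7, with 1.

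Treated RH/RQ hearts were compared with RH/RQ vehicle hearts, the same genotype with and without the virus. The log2 fold change was above 0 for 43 of 48 genes, with a median of 0.16 against 0.04 over all genes, but no member passed the test. In 21 of the 48 genes both treated libraries were above both vehicle libraries, against 26.2% of all genes; 1.22% of all genes passed the test in the higher direction. That count of members was 13 with CPM over nuclear genes (18.6% of all genes), 42 without treated library 2 (48.4% of all genes) and 35 without RH/RQ vehicle library 1 (48.8% of all genes). An unadjusted p under 0.05 was reached by 14 members, against 2096 of all 16804 genes, in either direction. EdgeR and DESeq2 called 0, and the authors' deposited table gives 0 of 48 an adjusted p under 0.05, with a lowest of 0.286. Under TMM, RLE or nuclear-only scaling 38 or 39 of 48 were above 0, and the median was 0.10.

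The 2 treated libraries differed from each other. Treated library 1 was above treated library 2 for 44 of the 48 genes, with a median log2 ratio of 0.25, while over all genes the median was 0.05. Within RH/+ and RH/RQ vehicle the median log2 ratio between libraries was 0.06 and 0.05 for the same genes. In 25 of 48 genes treated library 1 was the highest of the 6 libraries, and in 26 genes RH/RQ vehicle library 2 was the lowest. Without treated library 2, 14 members were called higher than in RH/RQ vehicle hearts (2.81% of all genes) and the median was 0.29, against 0.07 over all genes; without treated library 1, 0 were called and the median was 0.04, against 0.02 over all genes. The calls and the size of the median thus depended on which treated library was kept.

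The ratio between the treated libraries went with transcript length. The 28 Nduf genes with transcripts under 1000 bases had a median log2 ratio of 0.32, the 16 of 1000 to 2000 bases 0.19 and the 4 of 2000 to 4000 bases -0.02. Over all genes the medians for the same lengths were 0.13, 0.11 and 0.06, and -0.03 above 4000 bases. Spearman's rho between the ratio and length was -0.52 over the 48 genes and -0.24 over 16671 genes with a length; genes in 1 pair of libraries share depth and are not replicates. The part of this in the treated result was not tested.

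**Figure D3:**
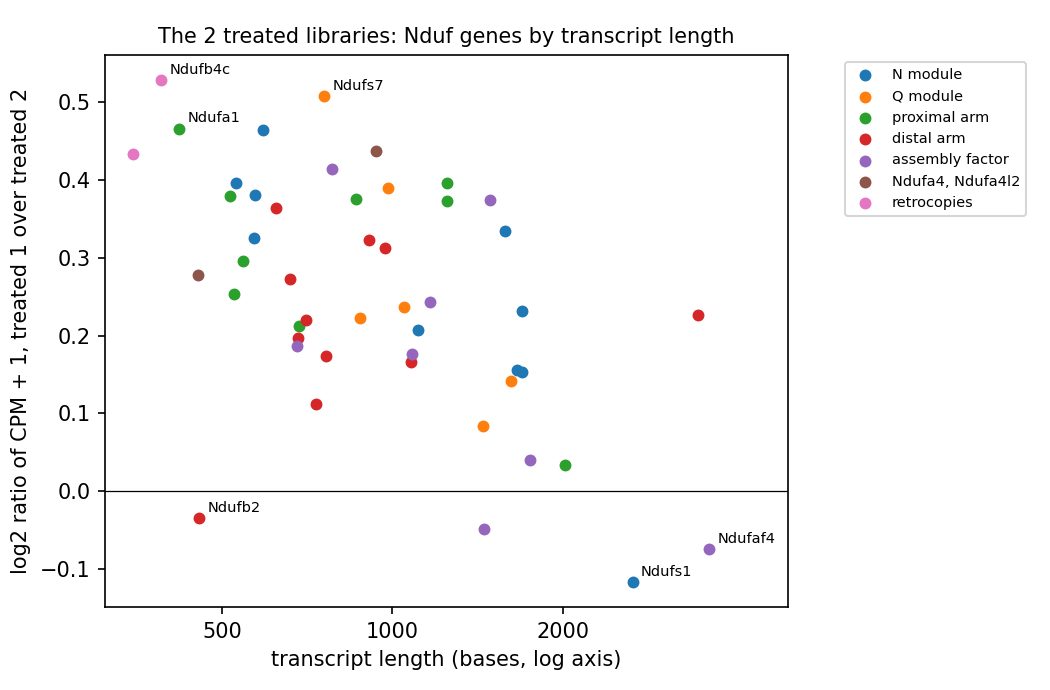
Log2 ratio of CPM + 1 in treated library 1 over treated library 2 against transcript length (bases, log axis) for the 48 Nduf genes, coloured by role. Most points lie above 0, and the ratios are lower for the longer transcripts, with a median of 0.32 under 1000 bases and -0.02 from 2000 to 4000 bases.

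By role, the medians of treated against vehicle were 0.19 for the N module, 0.15 for the Q module, 0.22 for the proximal and 0.20 for the distal membrane arm. The assembly factors had 0.04, which was -0.02 to -0.01 under other scalings. Ndufaf8 was the member with the largest value, 0.43 (SE 0.13; limma adjusted p = 0.106): both treated libraries, at 37.6 and 28.0 CPM, were above both vehicle libraries. Ndufa1 (log2 fold change 0.34, SE 0.12; limma adjusted p = 0.179) had its treated libraries at 197 and 142 CPM, of which the lower lay just under the higher vehicle library. Ndufb3, a distal subunit, had 203 and 164 CPM with RH/+, 164 and 144 CPM with RH/RQ and vehicle, and 204 and 181 CPM after treatment (log2 fold change 0.32, SE 0.11; limma adjusted p = 0.143). Ndufs6, a zinc-binding N module subunit, had 286 and 291 CPM with RH/+, 239.5 and 249.7 CPM with RH/RQ and vehicle, and 328 and 262 CPM after treatment (log2 fold change 0.26, SE 0.10; limma adjusted p = 0.264).

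Of the core subunits, Ndufs7 had the largest value (log2 fold change 0.32, SE 0.12; limma adjusted p = 0.242), with the second treated library barely above the higher vehicle library. The values for Ndufv1, Ndufs3 and Ndufs8 were 0.20, 0.14 and 0.10, and those for Ndufv2 and Ndufs1 were 0.06 and 0.03, which turned below 0 under other scalings. Ndufaf2 (log2 fold change -0.16, SE 0.12) and Ndufb2 (log2 fold change -0.16, SE 0.16) had values of the opposite sign. Ndufaf2 had its treated libraries, at 20.9 and 18.3 CPM, below both vehicle libraries. Ndufa5 was at 0.15 (SE 0.097), with a limma adjusted p of 0.561.

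Treated RH/RQ hearts were also set against RH/+ hearts, which were female by the same genes. No member passed the test, and 0.53% of all genes passed in the lower direction. The median log2 fold change was -0.06 against 0.08 over all genes, with 37 of 48 genes below 0. Under TMM factors 45 of 48 were below 0 and the median was -0.16, with the median of all genes at 0.00. In 9 of the 48 genes both treated libraries were below both RH/+ libraries (9.66% of all genes). An unadjusted p under 0.05 was reached by 2 members, against 2544 of all 16804 genes, in either direction. EdgeR called 0, DESeq2 called Ndufa5, Ndufa9 and Ndufa10 lower (1.25% of all genes), and the authors' deposited table gives Ndufa9 and Ndufa10 an adjusted p under 0.05 (1.04% of its genes, lower). Without treated library 1 the median was -0.20 and 43 members lay below both RH/+ libraries (25.3% of all genes); without treated library 2 the median was 0.08. The count of 9 was 23 with TMM factors (19.9% of all genes) and 20 without RH/+ library 2 (19.6% of all genes).

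Among the 9 genes were Ndufa5, Ndufa9, Ndufa10, Ndufb10, Ndufs1, Ndufv2, Ndufaf2 and Ndufaf4. Ndufa10 had 551 and 539 CPM in treated against 642 and 616 CPM in RH/+ hearts (log2 fold change -0.21, SE 0.097; limma adjusted p = 0.318), about the level of RH/RQ vehicle hearts. Ndufa5 had -0.21 (SE 0.097) in log2 units (limma adjusted p = 0.321). Ndufv2, with 519.9 and 468 CPM in treated hearts, had -0.17 (SE 0.099; limma adjusted p = 0.437). Ndufaf2 had -0.23 (SE 0.12; limma adjusted p = 0.378), and Ndufb7 -0.12 (SE 0.11; limma adjusted p = 0.64). Ndufa4l2 had 0.14 (SE 0.14), the sign opposite to most. The comparisons share libraries, so their values are not independent. By group means, the RH/RQ vehicle mean was the lowest of the 3 in 41 of the 48 genes, and of these 41 the treated mean lay between the others in 28 and above the RH/+ mean in 13. The treated mean was the lowest in 5 and the RH/+ mean in 2.

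Summed over genes, the 36 subunits gave 11982 and 11588 CPM with RH/+, 9971 and 9887 CPM with RH/RQ and vehicle, and 12044 and 10283 CPM after treatment. The RH/RQ vehicle sums were the lowest, and the treated libraries spanned the range from near RH/RQ vehicle to above RH/+. The 8 assembly factors summed to 306 and 289.9 CPM, 289.8 and 262 CPM and 299.7 and 279 CPM in the same order, with overlap. The 7 mitochondrial genes of complex I summed to 67303 and 65555 CPM with RH/+, 66767 and 70446 CPM with RH/RQ and vehicle, and 54314 and 67370 CPM after treatment. These sums weigh the most abundant genes most.

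**Figure D4:**
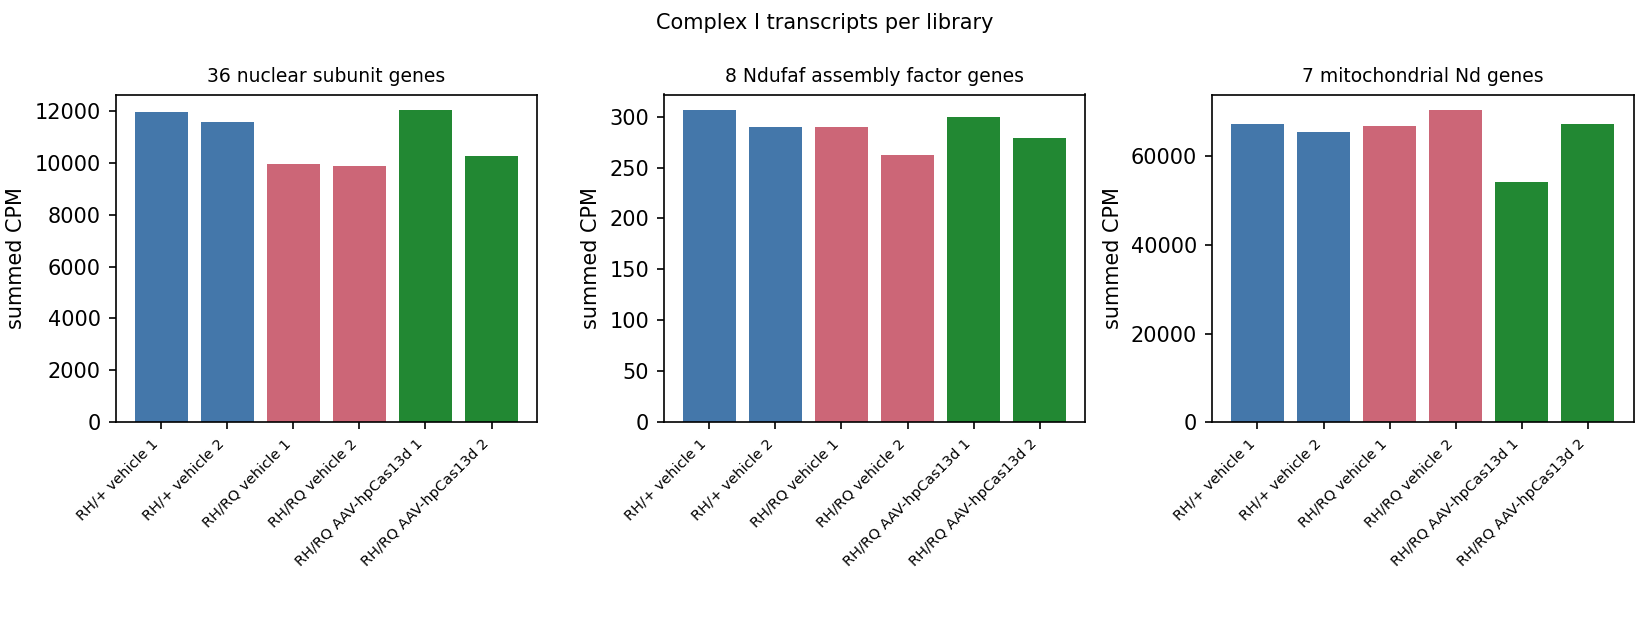
Summed CPM per library for the 36 nuclear subunits, the 8 Ndufaf genes and the 7 mitochondrial genes of complex I; bars are single libraries, coloured by group (blue RH/+, red RH/RQ vehicle, green treated). The subunit bars are lowest in RH/RQ vehicle (9971 and 9887 CPM), and the mitochondrial bar is lowest in treated library 1 (54314 CPM).

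The ratio of mitochondrial to nuclear subunit RNA was 5.62 and 5.66 in RH/+, 6.70 and 7.13 in RH/RQ vehicle and 4.51 and 6.55 in treated libraries. The RH/RQ vehicle libraries lay above both other groups, and treated library 1 had the lowest ratio of the 6. Of the 7 mitochondrial genes mt.Nd4l, a small membrane subunit that overlaps mt.Nd4 and whose reads are uncertain, rose in RH/RQ vehicle against RH/+ hearts, from 45.2 and 33.2 to 81.9 and 60.5 CPM (log2 fold change 0.85, SE 0.13; limma adjusted p = 0.000272). It fell in treated against vehicle hearts, to 48.4 and 47.5 CPM (log2 fold change -0.54, SE 0.13; limma adjusted p = 0.0299). The fall did not pass without RH/RQ vehicle library 1 (log2 fold change -0.33; limma adjusted p = 0.364), treated library 1 (adjusted p = 0.105) or treated library 2 (adjusted p = 0.0739), nor with a pseudocount of 5 (adjusted p = 0.0566), and with no filter on low values neither difference passed (adjusted p = 0.497 and, for the rise, 0.180). The other 6 did not pass in either comparison.

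Among 14 assembly factors without the Nduf name 13 were found in the tables (Coa1 was not). None passed in any comparison. In RH/RQ vehicle against RH/+ hearts all 13 were below 0 (7089 of all 16804 genes), with a median of -0.11. In 8 of the 13 both RH/RQ vehicle libraries were below both RH/+ libraries, against 18.5% of all genes. In treated against vehicle hearts all 13 were above 0 (10174 of all 16804 genes), with a median of 0.14. Under TMM factors 11 were above 0 (8281 of all 16804 genes). Tmem70, which helps to assemble complexes I and V, had 135 and 109 CPM with RH/+, 101 and 95.0 CPM with RH/RQ and vehicle, and 109 and 98.7 CPM after treatment (log2 fold change -0.30, SE 0.10 in RH/RQ vehicle against RH/+; limma adjusted p = 0.101).

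Of 15 transcriptional regulators of nuclear respiratory genes 10 were above 0 in RH/RQ vehicle against RH/+ hearts, with a median of 0.05. Under TMM factors 9 were above 0, with a median of 0.00. The 1 that passed was Ppargc1a, the coactivator of mitochondrial biogenesis. It fell in RH/RQ vehicle against RH/+ hearts, 133 and 120.2 CPM with RH/+, 94.3 and 94.0 CPM with RH/RQ and vehicle, and 110.3 and 133 CPM after treatment (log2 fold change -0.42, SE 0.10; limma adjusted p = 0.0127). Both treated libraries lay above both vehicle libraries, a difference of 0.36 (SE 0.10) that did not pass (limma adjusted p = 0.0667). The fall did not pass without RH/+ library 1 (limma adjusted p = 0.236), RH/RQ vehicle library 1 (adjusted p = 0.0800) or RH/RQ vehicle library 2 (adjusted p = 0.0875), nor with no filter (adjusted p = 0.211); the later difference passed with the replicate block (adjusted p = 0.0255) and without treated library 1 (adjusted p = 0.0109). None of the listed factors whose motif letters were searched passed in RH/RQ vehicle against RH/+ hearts. Nrf1 had 0.22 (SE 0.14), Gabpa -0.01 (SE 0.10) and Yy1 0.07 (SE 0.096). The oestrogen-related receptors went both ways, with -0.14 (SE 0.10) for Esrra, -0.10 (SE 0.11) for Esrrb and 0.29 (SE 0.11) for Esrrg.

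Nuclear genes of the other respiratory complexes showed differences of like size. Of 47 tested 3 were called lower in RH/RQ vehicle against RH/+ hearts (1.51% of all genes), and the median was -0.26. In 42 of the 47 both RH/RQ vehicle libraries were below both RH/+ libraries, against 18.5% of all genes. In treated against vehicle hearts 2 were called higher (1.22% of all genes) and the median was 0.20. Of 77 mitochondrial ribosomal protein genes 1 was called lower in RH/RQ vehicle hearts, a share near the 1.51% of all genes, with a median of -0.15. Complex I was not tested against these lists.

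Markers of cell types also differed between the groups, but not all in the same order. The 12 cardiomyocyte markers summed to 58664 and 59672 CPM with RH/+, 51867 and 54372 CPM with RH/RQ and vehicle, and 58958 and 58065 CPM after treatment; 10 of 12 were below 0 in RH/RQ vehicle against RH/+ (median -0.12) and 0 passed. The 7 fibroblast markers summed to 908 and 979.6 CPM with RH/+ and 1654 and 1558 CPM with RH/RQ and vehicle. After treatment they summed to 1517 and 1300.5 CPM. In RH/RQ vehicle against RH/+ hearts 6 of 7 were above 0 and 5 passed as higher (3.48% of all genes), while Tcf21 was at -0.22. In treated against vehicle hearts Col1a1, Col1a2 and Col3a1 passed as lower (0.827% of all genes). The other 4 were above 0 there, and the median of the 7 was 0.04. The 6 macrophage markers summed to 281 and 276 CPM, 364 and 332 CPM and 351 and 291 CPM in the same order of groups. All 6 were above 0 in RH/RQ vehicle against RH/+ hearts, and 3 passed the test as higher. Of 5 endothelial markers 0 passed in any comparison, and of 5 mural markers Acta2 fell in RH/RQ vehicle against RH/+ hearts (log2 fold change -1.35, SE 0.12; limma adjusted p = 1.32e-07). Of the 4 adipocyte markers Plin1 alone passed the filter, at 0.263 and 1.10 CPM with RH/+, 0.0196 and 0 CPM with RH/RQ and vehicle, and 0.0551 and 0.0527 CPM after treatment; the other 3 were at 0 to 1.25 CPM. Plin1 fell in RH/RQ vehicle against RH/+ hearts (difference of -0.69 on the log2(CPM + 1) scale, SE 0.19; limma adjusted p = 0.0343), but it did not pass without RH/+ library 2 (-0.32; adjusted p = 0.522), without RH/RQ vehicle library 1 (adjusted p = 0.12) or 2 (adjusted p = 0.143), with a pseudocount of 5 (adjusted p = 0.0820) or with no filter (adjusted p = 0.312). Blood markers, 3 haemoglobin genes, fell in treated against vehicle hearts, from sums of 219.6 and 329 to 174 and 149.7 CPM. In treated against RH/+ hearts Acta2 was lower as well (log2 fold change -1.51, SE 0.12, limma adjusted p = 4.77e-08). Of the 7 fibroblast markers 4 passed there as higher (2.33% of all genes), and the 3 haemoglobin genes passed as lower (0.53% of all genes). Of the cardiomyocyte and macrophage markers 0 passed there. No listed marker of cardiomyocytes, fibroblasts or macrophages was at 0. The part of these in the Nduf differences was not tested.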

How the data were processed

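RNA of mouse hearts was measured in 6 libraries, in 3 groups of 2, read from the sample labels. The submitters' processing notes name HISAT2, HTSeq, DESeq2 and mm10; versions, roles and strandedness are not given in the sources used here. The authors deposited CPM, read counts scaled to the library total, with log2 fold changes and adjusted p-values per the file headers. Every CPM value was a whole multiple of 1 read (100% of values, tolerance 0.001), so reads were recovered. Library totals were 36269261 to 51017058 reads. The test was limma 3.58.1 (trend, two-sided) on log2(CPM + 1), a pseudocount of 1, for genes kept by filterByExpr (minimum count 10; 16804 of 29385). All 6 libraries entered 1 fit and shared 1 estimate of the spread. Benjamini-Hochberg adjustment was over all genes, with calls at an adjusted p under 0.05. On this scale a fold change understates the change of low genes.

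The fits were tested on simulated reads. Alternatives were edgeR 4.0.16 and DESeq2 1.42.0 on recovered reads, TMM and RLE factors, CPM over nuclear genes, other filters, pseudocounts of 0.1 and 5, a fit of only the 4 libraries compared, the replicate number as a block, and leaving out each library. Counts of genes whose groups do not overlap were run under other scalings, and without each library, after the data were seen. The members and lists were chosen with earlier results of these data known, as was the naming rule: called members, core subunits, Ndufa4 and Ndufa4l2, the smallest p and the highest and lowest mean CPM in each role, and members of opposite sign by more than their SE. Genes named outside it were chosen after their values were seen. Of the members 1 enters the fits and counts, but its own values are not reported here. Genes were placed by symbol in GENCODE M21 (GRCm38), where 28973 symbols had 1 match; lengths are those of 1 principal transcript a gene.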

Additional observations from a re-analysis of the deposited data

How the results depend on the processing

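The direction of the median held under every scaling and tool run in all 3 comparisons; without treated library 2 that of treated against RH/+ hearts turned from -0.06 to 0.08. The count of members called in RH/RQ vehicle against RH/+ hearts was 1, against 6 with edgeR, 14 with DESeq2, 10 with TMM factors, 10 with RLE factors (2.42% of all genes called lower), 11 with a replicate block (2.33%), 11 with the 4 libraries alone (2.17%) and 0 with no filter on low counts; leaving out 1 library gave 0 to 11, with 11 without either treated library and 1, Ndufc1, without RH/RQ vehicle library 1. In treated against vehicle hearts it was 0, against 3 with the replicate block (2.15% of all genes called higher), and leaving out 1 library gave 0 to 14. In treated against RH/+ hearts it was 0, against 3 with DESeq2. Deviations of libraries with the same number leading the sample title correlated at 0.13, -0.02 and 0.07. Whether these numbers mark pairs or a batch cannot be told from so few libraries.

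Groups that did not overlap, treated above vehicle, numbered 21 of 48 (26.2% of all genes) and 13 with CPM over nuclear genes (18.6%). With 1 library left out they numbered 21 to 42, and the share of all genes moved as well. There were 42 without treated library 2 (48.4% of all genes) and 35 without RH/RQ vehicle library 1 (48.8%). For treated below RH/+ hearts there were 9 (9.66% of all genes), and 23 with TMM factors (19.9%). With 1 library left out there were 9 to 43, with 43 without treated library 1 (25.3% of all genes) and 20 without RH/+ library 2 (19.6%).

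The log2 fold change turned sign under at least 1 alternative in 3 of the 48 members in RH/RQ vehicle against RH/+ hearts, 16 in treated against vehicle and 37 in treated against RH/+ hearts; 0 of the turned values were called. The following are those of members named in that comparison by the naming rule or in the text. In RH/RQ vehicle against RH/+ hearts Ndufa4l2 was -0.042 with edgeR, -0.047 with DESeq2, -0.042 with TMM and -0.045 with RLE factors, and -0.092 to 0.099 with 1 library left out; Ndufaf7 was -0.0025 with DESeq2, -0.0034 with TMM and -0.0065 with RLE factors, and -0.096 to 0.18 with 1 library left out; Ndufb2 was -0.13 to 0.32 with 1 library left out. In treated against vehicle hearts edgeR, DESeq2, TMM, RLE and nuclear CPM gave -0.031, -0.030, -0.033, -0.033 and -0.038 for Ndufs1 and -0.0030, -0.0021, -0.0022, -0.0015 and -0.0066 for Ndufv2. With 1 library left out the ranges there were -0.016 to 0.26 for Ndufa4, -0.080 to 0.36 for Ndufa4l2, -0.38 to 0.069 for Ndufb2, -0.033 to 0.083 for Ndufs1, -0.094 to 0.30 for Ndufs8 and -0.020 to 0.13 for Ndufv2. In treated against RH/+ hearts edgeR, DESeq2, TMM and RLE gave -0.021, -0.025, -0.037 and -0.040 for Ndufs7 and -0.091, -0.094, -0.091 and -0.093 for Ndufv1, which was -0.015 with nuclear CPM. With 1 library left out the ranges were -0.23 to 0.044 for Ndufa4, -0.077 to 0.36 for Ndufa4l2, -0.30 to 0.060 for Ndufb7, -0.22 to 0.012 for Ndufs3, -0.18 to 0.32 for Ndufs7, -0.29 to 0.095 for Ndufs8 and -0.062 to 0.093 for Ndufv1. The cause was not tested. Counting depth was lowest for Ndufb4c and Ndufs6b, at 4.67 to 9.68 CPM.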
